A study of Mus with 6 samples.

Results

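The genes of the mitochondrial respiratory chain and ATP synthase were followed in mouse CD4+ T cells activated with an anti-VEGF-B antibody or with control IgG. Genes were taken by symbol from the deposited expression table: names that begin with Nduf, Uqcr, Cox4 to Cox8, Atp5 or mt-, and the symbols Sdha, Sdhb, Sdhc and Sdhd. Of 101 genes with such names, 99 had a mean of at least 1 FPKM over the 6 libraries (fragments mapped to a gene, scaled to transcript length and to the mapped fragments of the library, the unit the values were taken to be in) and are described here, of 8816 genes at that level and 10995 listed. The nuclear genome encodes 86 of the 99 and mitochondrial DNA (mtDNA) encodes 13. By complex, 50 belong to complex I, 4 to complex II, 9 to complex III, 19 to complex IV and 17 to complex V. The symbols also take in 7 complex I assembly factors (Ndufaf1, Ndufaf2, Ndufaf3, Ndufaf5, Ndufaf6, Ndufaf7 and Ndufaf8), which help build the complex and are not part of it. Ndufa4 was counted with complex IV, where its protein is found, as was Cox7a2l, a factor that joins complexes III and IV. Just inside the level limit were Cox6a2 (mean 1.03 FPKM), Ndufb2 (1.33 FPKM) and Cox6b2 (1.37 FPKM). Just outside it were Ndufaf4 (0.845 FPKM) and Atp5s (0.232 FPKM).

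The cells were naive CD4+ T cells from the spleen of wild-type mice, of the C57BL/6 strain by the study's methods. In both groups the cells were stimulated for 3 days with 5 μg/mL anti-CD3, 2 μg/mL anti-CD28 and 100 U/mL IL-2. One group of 3 libraries also received 1 μg/mL of anti-VEGF-B, which neutralizes the secreted growth factor VEGF-B. The other group of 3 libraries received 1 μg/mL of normal goat IgG. No unstimulated cells were included in the comparison, so both groups describe the activated state. The sources do not say whether libraries came from separate mice or cultures, and the p-values therefore measure the spread between these libraries, which may be technical.

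The respiratory chain sits in the inner mitochondrial membrane. Complex I takes electrons from NADH and complex II takes them from succinate. Coenzyme Q carries them to complex III, and cytochrome c carries them on to complex IV, which reduces oxygen. Complexes I, III and IV pump protons as they work, and complex V, the ATP synthase, makes ATP from the return flow. Complex II is built from nuclear genes alone, while the other complexes join nuclear subunits to a few hydrophobic ones made inside the mitochondrion. The mtDNA genes are transcribed as long polycistronic RNAs that are cut into the separate messages. Naive T cells that become activated enlarge their mitochondria and their respiratory capacity.

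Across the whole table the fold changes were centred below 0. On the log2(FPKM + 1) scale the median of all 8816 genes was -0.15 with anti-VEGF-B, and 71.2% of genes had a lower mean in that group. The summed FPKM of a library ranged from 262045 to 276527 with anti-VEGF-B and from 260058 to 276622 with IgG. The read depth of the libraries is unknown, since low values did not fall on steps of 1 read: at most 1.40% of genes under 0.3 FPKM shared a ratio between libraries. Between 59 and 91 listed genes stood at 0 FPKM in the anti-VEGF-B libraries, against 36 or 37 in the IgG libraries. Of 8 T cell markers 7 were analysed here, among them Cd4, at 64.8 to 73.4 FPKM with anti-VEGF-B and 64.0 to 74.6 FPKM with IgG. Their summed level was 425 to 468 FPKM with anti-VEGF-B and 439 to 517 FPKM with IgG, and 2 of the 7, Cd3e and Cd5, fell. Of all genes tested 23.8% fell. Cd3g was lower in mean without a call (log2 fold change -0.43, limma adjusted p = 0.0621). Cd3d and Lck overlapped between groups (0.10 and 0.00). The 4 activation markers summed to 196 to 206 FPKM and 232 to 290 FPKM, and 2 of them fell: Il2ra, the high-affinity IL-2 receptor chain, and Mki67, a marker of cycling cells (1.95, 2.28 and 2.04 FPKM with anti-VEGF-B against 6.40, 9.54 and 7.13 FPKM with IgG). Cd44 and Tfrc overlapped between groups and were not called, and the mean of Tfrc was higher with anti-VEGF-B (120 against 112 FPKM). The part that the lower Cd3e, Cd5, Il2ra and Mki67 had in the results below was not tested. Among markers of other cells, 3 for macrophages and monocytes summed to 3.95 to 5.11 FPKM with anti-VEGF-B and to 4.60 to 19.8 FPKM with IgG. The highest value came from IgG replicate 3, where Lyz2 stood at 16.4 FPKM. Cd79b, the B cell marker analysed here, reached at most 1.34 FPKM and the NK cell gene Klrd1 0.512 FPKM. The 2 CD8 T cell genes summed to 3.32 to 4.69 FPKM with anti-VEGF-B and 2.29 to 4.21 FPKM with IgG, nearly all of it Cd8b1 (2.27 to 4.51 FPKM over the 6 libraries), while Cd8a reached at most 0.182 FPKM.

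Respiratory chain transcripts were lower for some genes of complexes I, II and III and for 1 of complex IV, and higher for a few of complexes IV and V (limma on log2(FPKM + 1), Benjamini-Hochberg adjustment over 8816 genes, adjusted p under 0.05). Of the 99 genes, 14 fell, which is 14.1% beside 23.8% of all genes tested. The 4 that rose are 4.04%, beside 4.87% of all genes. Neither share exceeded that of the table as a whole. The 3 anti-VEGF-B libraries were all below the 3 IgG libraries in 26 genes (26.3%, beside 38.5% of all genes) and all above them in 13 (13.1%, beside 10.5%). The median log2 fold change was -0.11 for the 86 nuclear genes and -0.19 for the 13 mtDNA genes (from -0.31 to -0.02 when 1 library was left out), beside -0.15 for all genes. In bulk samples fewer cells of a type and less RNA per cell cannot be told apart. With quantile normalization 9 genes were lower and 6 higher (9.09% and 6.06%, beside 10.4% and 9.98% of all genes). With each library centred on its median 3 were lower and 17 higher (3.03% and 17.2%, beside 9.15% and 15.5%). Without anti-VEGF-B replicate 2 the count of lower genes was 8 (8.08%, beside 16.2% of all genes). It was 6 without anti-VEGF-B replicate 3 (6.06%, beside 7.88%). It was 9 without IgG replicate 1 (9.09%, beside 23.5%) and 8 without IgG replicate 2 (8.08%, beside 12.5%). The count of higher genes went to 2 (2.02%) without anti-VEGF-B replicate 1, anti-VEGF-B replicate 3 or IgG replicate 2. Of all genes 3.54%, 1.86% and 2.93% rose in these fits. Calls held in all 6 fits that left out a library for Ndufb4, Ndufa1, mt-Nd5, Sdhb, Uqcr11 and Atp5j2. Of these, mt-Nd5 and Uqcr11 were lost with each library centred on its median (limma adjusted p = 0.0986 and 0.102). Uqcr11 was also lost with scaling to Actb (limma adjusted p = 0.0681). Calls of Ndufb4, Ndufa1, Sdhb and Atp5j2 held with both scales. Of all 14 lower genes, only Ndufb4, Ndufa1 and Sdhb kept their call with median centring, while the 4 higher genes all kept theirs. With quantile normalization 9 of the 18 calls held.

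By complex, the median log2 fold change was -0.20 for complex I, -0.18 for complex II, -0.14 for complex III, 0.04 for complex IV and 0.00 for complex V. Set against the median of all genes, complexes I and II lay 0.05 and 0.03 below it, complex III lay 0.02 above it, and complexes IV and V lay 0.19 and 0.15 above it. These positions depended on the scale. With quantile normalization complexes I, II, III and IV lay 0.03, 0.16, 0.17 and 0.06 below the median of all genes, so that complexes III and IV changed side, and complex V stayed above it by 0.06. With each library centred on its median, the 5 medians ran from 0.00 to 0.24 and that of all genes was 0.05. The positions also moved with single libraries: complex I lay above the median of all genes without anti-VEGF-B replicate 2 (by 0.02) or IgG replicate 1 (by 0.03). Complex III lay between 0.06 below it, without IgG replicate 2, and 0.15 above it, without anti-VEGF-B replicate 2, and its own median went to -0.01 and -0.06 without anti-VEGF-B replicate 2 and IgG replicate 1. In complex I 9 of 50 genes fell (18.0%) and none rose, in complex II 1 of 4 fell (25.0%), and in complex III 3 of 9 fell (33.3%), beside 23.8% of all genes. In complex IV 1 of 19 fell (5.26%) and 2 rose (10.5%), and in complex V none of 17 fell and 2 rose (11.8%), beside 4.87% of all genes that rose. No difference between complexes was tested.

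**Figure D1:**
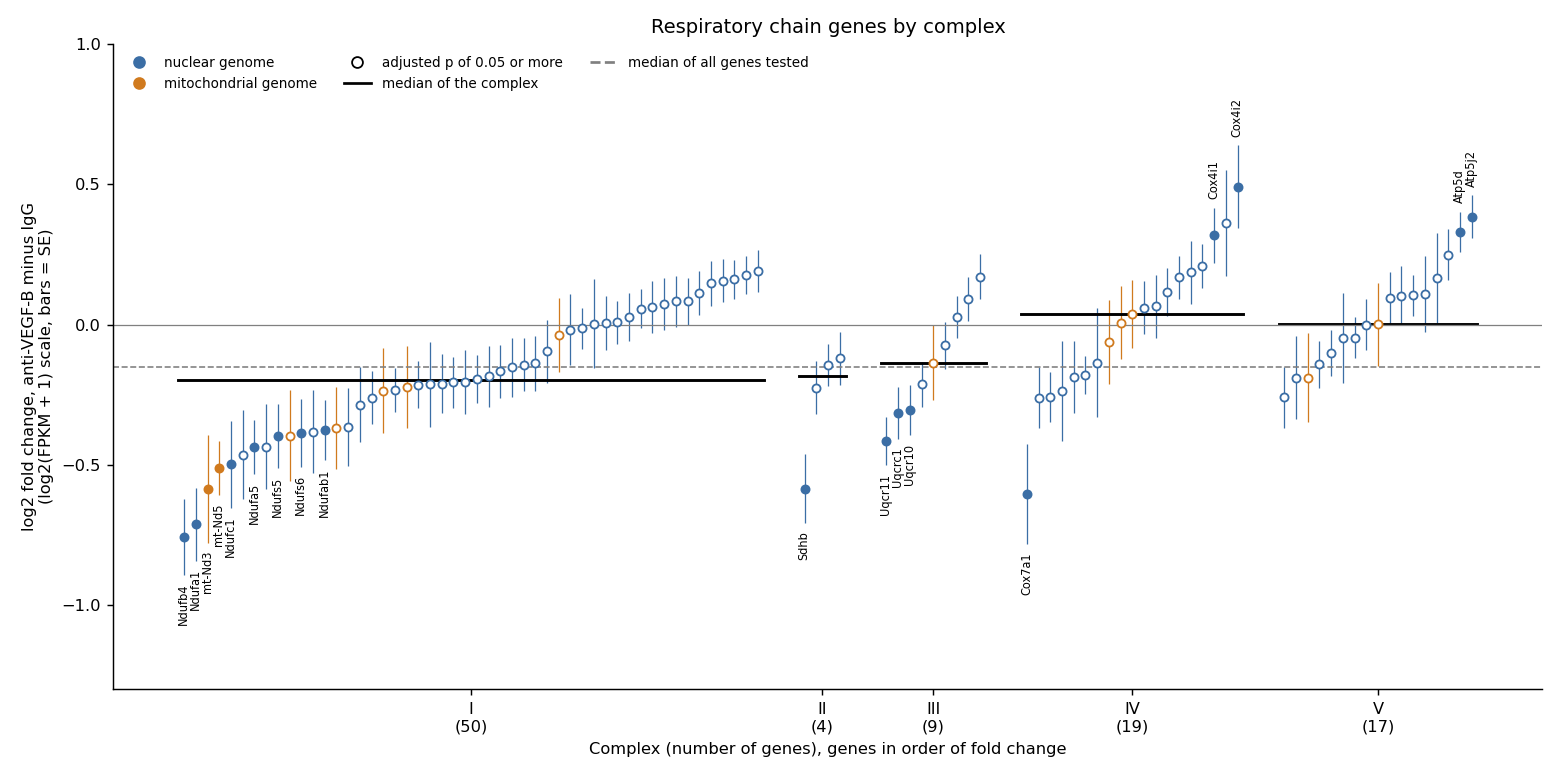
Each point is 1 gene, with its log2 fold change (anti-VEGF-B minus IgG, 3 libraries each) on the vertical axis and its SE as a bar; genes are grouped by complex and ordered by fold change. Filled points passed an adjusted p of 0.05. Complexes I, II and III hold named points below 0, complex V holds named points above 0 alone, and the medians (solid lines) of complexes IV and V lie above the dashed median of all genes.

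Of the 9 lower genes of complex I, 7 encode accessory subunits, which surround the catalytic core, and 2 are mtDNA core genes described below. The 7 lower genes are 24.1% of the 29 accessory genes, near the 23.8% of all genes, none rose, and their median log2 fold change was -0.19. The largest difference was that of Ndufb4, a subunit of the membrane arm (chromosome 16, 37647170 to 37654453, minus strand, GRCm38). It measured 4.38, 3.27 and 4.28 FPKM with anti-VEGF-B and 6.75, 8.86 and 6.68 FPKM with IgG. The groups did not overlap, and the anti-VEGF-B mean was 53.5% of the IgG mean (log2 fold change -0.76 ± 0.14 SE, limma adjusted p = 0.00794). Ndufa1, a small X-linked subunit needed for assembly of the membrane arm (chromosome X, 37187588 to 37191163, minus strand), was more abundant, at 31.1, 22.4 and 29.8 FPKM against 43.3, 52.0 and 42.3 FPKM. Here too every anti-VEGF-B library was below every IgG library (-0.71 ± 0.13, limma adjusted p = 0.00853). In both genes replicate 2 was the lowest of its group with anti-VEGF-B and the highest of its group with IgG.

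Ndufa5, a subunit of the matrix arm (chromosome 6, 24518666 to 24528013, minus strand), measured 5.63, 6.01 and 5.70 FPKM against 8.98, 8.18 and 7.44 FPKM. It fell by 0.44 on the log2 scale (limma adjusted p = 0.0136), and the call was lost without anti-VEGF-B replicate 3 (adjusted p = 0.0517). The call was also lost with quantile normalization and with median centring (limma adjusted p = 0.103 and 0.105). Ndufs5, a subunit on the intermembrane-space side (chromosome 4, 123712710 to 123718202, minus strand), stood at 8.20, 9.49 and 8.42 FPKM against 11.3, 13.8 and 10.4 FPKM. The highest anti-VEGF-B library was still below the lowest IgG library (-0.40, limma adjusted p = 0.0311). This call was lost without anti-VEGF-B replicate 1, anti-VEGF-B replicate 3 or IgG replicate 2, at adjusted p up to 0.0936. Quantile normalization, median centring and scaling to Actb also lost it (limma adjusted p = 0.0885, 0.142 and 0.0909). Ndufs6, a zinc-binding matrix-arm subunit (chromosome 13, 73319838 to 73328542, minus strand), had 12.6, 9.85 and 12.2 FPKM against 17.7, 14.6 and 13.9 FPKM.

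Ndufab1, the mitochondrial acyl carrier protein, serves mitochondrial fatty acid synthesis as well as complex I (chromosome 7, 122085403 to 122101886, minus strand). It measured 3.20, 2.88 and 2.47 FPKM against 3.94, 4.18 and 3.84 FPKM. Ndufc1, a small membrane-arm subunit (chromosome 3, 51404677 to 51408988, minus strand), measured 2.59, 2.08 and 2.33 FPKM against 2.71, 4.72 and 3.89 FPKM. Groups were apart in Ndufab1, Ndufc1 and Ndufs6, but in Ndufc1 IgG replicate 1 lay close to the anti-VEGF-B libraries. Their log2 fold changes were -0.38, -0.50 and -0.39 (limma adjusted p = 0.0299, 0.0416 and 0.0404). Each of the 3 calls held in 1 of the 6 fits that left out a library: that without anti-VEGF-B replicate 1 for Ndufab1, without IgG replicate 1 for Ndufc1 and without IgG replicate 3 for Ndufs6, with adjusted p up to 0.118, 0.113 and 0.113 in the others.

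The other 22 accessory genes did not pass the test. Nearest to it was Ndufb3, with 25.0, 26.2 and 28.8 FPKM against 31.1, 32.3 and 31.2 FPKM (-0.23, limma adjusted p = 0.0504). The most abundant nuclear gene of complex I, Ndufa6, had 258, 210 and 244 FPKM against 239, 213 and 219 FPKM, with overlap. The next, the small matrix-arm subunit Ndufv3, lay the other way at 125, 114 and 116 FPKM against 102, 106 and 106 FPKM, without overlap (0.18, limma adjusted p = 0.0795).

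The nuclear core subunits, which carry the flavin and the iron-sulfur clusters, showed no call among 7 genes. Their median log2 fold change was 0.01, which is 0.16 above that of all genes. The flavoprotein gene Ndufv1 measured 6.33, 5.77 and 6.19 FPKM against 5.64, 7.71 and 5.42 FPKM, with overlap. Ndufs7, which holds the last cluster before the quinone, was lower in mean but overlapped, at 5.07, 6.66 and 6.03 FPKM against 7.56, 10.1 and 6.63 FPKM (-0.38, limma adjusted p = 0.0797). The 7 assembly factors likewise gave no call, with a median of -0.21. Ndufaf6 was the lowest of them, at 1.10, 1.04 and 1.81 FPKM against 1.79, 2.60 and 1.95 FPKM (-0.44, limma adjusted p = 0.0585), and Ndufaf8 had separate groups, at 2.95 to 3.01 FPKM against 3.56 to 3.98 FPKM.

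Complex II, succinate dehydrogenase, also acts in the tricarboxylic acid cycle. Its iron-sulfur subunit Sdhb (chromosome 4, 140961203 to 140979193, plus strand) measured 6.77, 6.19 and 5.33 FPKM with anti-VEGF-B and 9.24, 11.2 and 8.52 FPKM with IgG. No library of one group reached the other, and the mean was 63.1% of that of IgG (-0.59 ± 0.12 SE, limma adjusted p = 0.0119). Without a library the adjusted p stayed at or below 0.048. The flavoprotein subunit Sdha stood at 18.2, 17.3 and 16.7 FPKM against 18.8, 23.4 and 19.7 FPKM, without overlap but short of the threshold (-0.22, limma adjusted p = 0.102). The membrane anchors Sdhc and Sdhd overlapped: Sdhc at 7.80, 6.84 and 7.04 FPKM against 7.84, 8.54 and 7.43 FPKM, and Sdhd at 85.8, 75.4 and 75.6 FPKM against 88.1, 89.0 and 84.4 FPKM. All 4 genes had a lower mean with anti-VEGF-B. Their summed FPKM, in which Sdhd weighs most, was 119, 106 and 105 with anti-VEGF-B and 124, 132 and 120 with IgG. Among the nuclear sums of the 5 complexes this was the one in which the groups did not overlap.

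Complex III, the cytochrome bc1 complex, had 3 lower genes among its 8 nuclear ones. Uqcr11, its smallest accessory subunit (chromosome 10, 80402997 to 80406830, minus strand), measured 13.5, 15.5 and 15.8 FPKM against 20.2, 21.0 and 19.4 FPKM. The groups were apart and the call held in all 6 fits that left out a library (-0.42 ± 0.09 SE, limma adjusted p = 0.0118). The core subunit Uqcrc1 (chromosome 9, 108936633 to 108949623, plus strand) measured 9.02, 9.02 and 8.99 FPKM against 10.8, 12.9 and 10.8 FPKM, and the accessory subunit Uqcr10 (chromosome 11, 4701973 to 4704342, minus strand) measured 43.4, 41.3 and 38.3 FPKM against 50.2, 56.4 and 46.4 FPKM. These were smaller differences, of -0.31 and -0.30 (limma adjusted p = 0.0342 and 0.0346), and each call held in 1 of the 6 fits that left out a library, without IgG replicate 1 for Uqcrc1 and without IgG replicate 3 for Uqcr10. In the other 5 fits the adjusted p reached 0.0963 and 0.121. The partner of Uqcrc1, Uqcrc2, lay the other way at 77.0, 65.8 and 76.0 FPKM against 65.7, 64.3 and 63.6 FPKM (0.17, limma adjusted p = 0.131). The Rieske iron-sulfur protein Uqcrfs1 (115, 100 and 108 FPKM against 107, 108 and 102 FPKM) and the hinge protein Uqcrh (261, 227 and 249 FPKM against 236, 219 and 235 FPKM) overlapped.

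In complex IV, cytochrome c oxidase, both isoforms of subunit 4 rose. Cox4i1, the common isoform (chromosome 8, 120668222 to 120674207, plus strand), measured 157, 162 and 179 FPKM with anti-VEGF-B and 153, 120 and 129 FPKM with IgG. IgG replicate 1 lay just below the lowest anti-VEGF-B library (0.32 ± 0.10 SE, limma adjusted p = 0.0416). Cox4i2, the isoform known from lung and from low oxygen (chromosome 2, 152754173 to 152765037, plus strand), was far less abundant, at 7.33, 8.36 and 5.42 FPKM against 4.01, 4.82 and 5.19 FPKM (0.49 ± 0.15 SE, limma adjusted p = 0.0371). Cox4i2 made up 4.45, 4.91 and 2.93% of the summed FPKM of the pair with anti-VEGF-B and 2.56, 3.86 and 3.87% with IgG, and these shares overlapped. Neither call was firm. That of Cox4i1 held only without IgG replicate 1, and that of Cox4i2 only without anti-VEGF-B replicate 3 or IgG replicate 3, with adjusted p up to 0.145 and 0.111 in the other fits that left out a library.

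The lower gene of complex IV was Cox7a1, the heart and muscle isoform of subunit 7A (chromosome 7, 30184144 to 30186078, plus strand), at 1.48, 3.15 and 2.31 FPKM against 3.82, 4.56 and 3.46 FPKM. The anti-VEGF-B libraries were spread widely, replicate 1 lowest and replicate 2 highest (-0.60 ± 0.18 SE, limma adjusted p = 0.0349), and the call held only without anti-VEGF-B replicate 2 or IgG replicate 3 (adjusted p up to 0.103 otherwise). The ubiquitous isoform Cox7a2 was at 97.6, 69.8 and 91.5 FPKM against 109, 88.2 and 96.2 FPKM, with overlap. Cox7a2l, the most abundant nuclear gene of the 86, measured 439, 424 and 425 FPKM against 398, 343 and 373 FPKM (0.21, limma adjusted p = 0.0708). Of the other paired isoforms, Cox6a1 stood at 86.3, 84.7 and 81.2 FPKM against 97.8, 96.3 and 92.1 FPKM (-0.18, limma adjusted p = 0.0709). Its muscle counterpart Cox6a2 overlapped at 1.51, 0.661 and 1.72 FPKM against 1.06, 0.653 and 0.564 FPKM. Cox6b1 overlapped as well (234, 187 and 225 FPKM against 216, 200 and 201 FPKM), and its testis isoform Cox6b2 had 1.01, 1.05 and 1.42 FPKM against 1.61, 1.498 and 1.63 FPKM (-0.26, limma adjusted p = 0.0966). Ndufa4 (16.9, 11.3 and 12.1 FPKM against 20.5, 13.7 and 13.8 FPKM) and the abundant Cox8a (302, 231 and 291 FPKM against 286, 245 and 253 FPKM) did not separate by group.

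In complex V no gene fell, and the 2 that rose were Atp5j2 and Atp5d. Atp5j2, subunit f of the membrane part (chromosome 5, 145183698 to 145192062, minus strand), measured 29.9, 27.5 and 28.7 FPKM with anti-VEGF-B against 22.5, 20.5 and 22.3 FPKM with IgG. All 3 anti-VEGF-B libraries were higher (0.38 ± 0.08 SE, limma adjusted p = 0.0104), and the adjusted p stayed at or below 0.0419 without any 1 library. Atp5d, subunit delta of the catalytic head's central stalk (chromosome 10, 80138632 to 80145818, plus strand), measured 162, 157 and 159 FPKM against 130, 118 and 131 FPKM. Its mean was 126% of that of IgG (0.33 ± 0.07 SE, limma adjusted p = 0.0130), and the call was just lost without anti-VEGF-B replicate 3 (adjusted p = 0.0509). In the table Atp5d overlaps Cbarp on the opposite strand over 2204 bases, and Cbarp, a calcium channel regulator at a mean of 1.46 FPKM, fell (-0.62, limma adjusted p = 0.0141). Atp5e, subunit epsilon of the same stalk, lay the same way as Atp5d, at 78.3, 74.6 and 79.6 FPKM against 73.0, 58.3 and 64.6 FPKM (0.25, limma adjusted p = 0.0634).

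The catalytic subunit Atp5b overlapped between groups, at 154, 151 and 139 FPKM against 174, 153 and 151 FPKM. The c ring, which turns in the membrane, is built from identical proteins encoded by 3 genes. Of their summed FPKM, Atp5g2 held 73.4, 67.7 and 73.8% with anti-VEGF-B and 67.9, 63.6 and 69.1% with IgG, Atp5g3 held 24.01 to 29.9% and 28.6 to 32.5%, and Atp5g1 held 2.19 to 2.40% and 2.24 to 3.82%. None of these shares separated the groups.

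**Figure D2:**
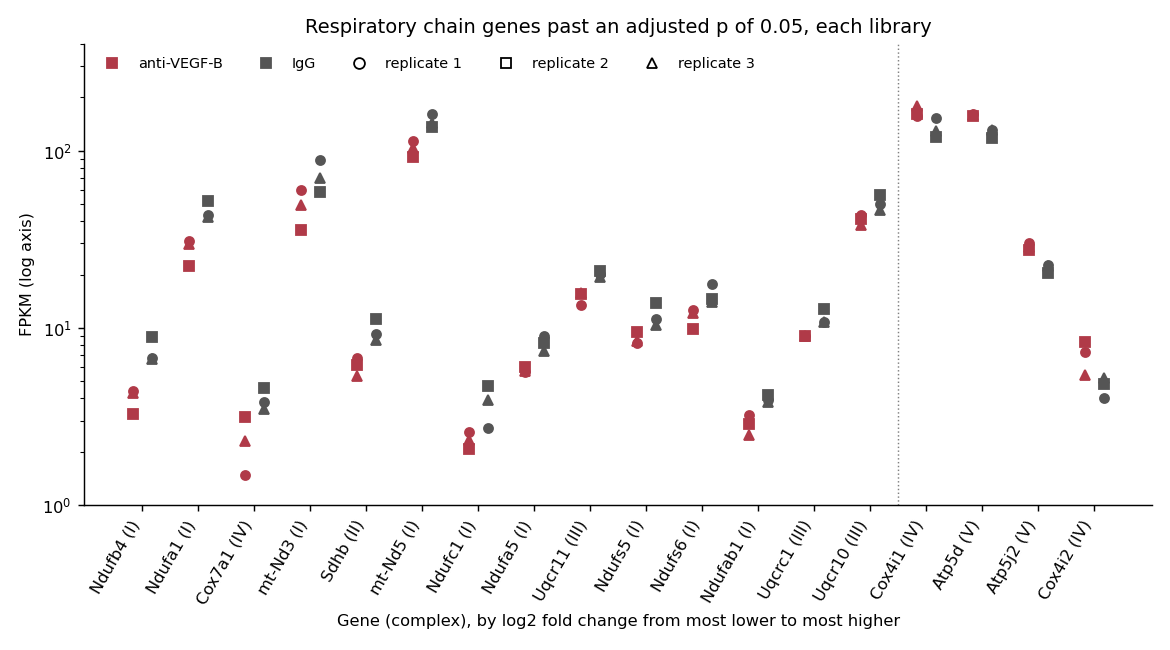
FPKM (log axis) of the 18 genes past an adjusted p of 0.05 in each of the 6 libraries; colour gives the group, marker shape the replicate number, and the dotted line divides the 14 lower from the 4 higher genes. The groups do not overlap except in mt-Nd3, where IgG replicate 2 (58.2 FPKM) lies below anti-VEGF-B replicate 1 (59.7 FPKM).

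Of the 13 mtDNA genes 2 fell, both in complex I, which is 15.4% beside 23.8% of all genes. None rose, beside 4.87% of all genes. Together the 13 genes took 2.32, 1.83 and 2.23% of the summed FPKM with anti-VEGF-B and 2.56, 2.02 and 2.35% with IgG, and these shares overlapped. The difference of the means, -0.188 percentage points, shrank to -0.041 when anti-VEGF-B replicate 2 was left out and to -0.064 when IgG replicate 1 was, and it grew to -0.285 when anti-VEGF-B replicate 1 was left out and to -0.333 when IgG replicate 2 was. Replicate 2 was the lowest library of its group for all 13 genes in both groups. mt-Nd5, an antiporter-like subunit at the far end of the membrane arm (mitochondrial genome, 11742 to 13565, plus strand), measured 113, 92.3 and 103 FPKM against 162, 136 and 143 FPKM. It was the only mtDNA gene in which the groups did not overlap, which is 7.69% of the 13. Of all genes 38.5% were lower without overlap. The log2 fold change of mt-Nd5 was -0.51 ± 0.10 SE (limma adjusted p = 0.00927), and the call held without any 1 library (adjusted p up to 0.0345). mt-Nd3, a short subunit by the quinone site (9459 to 9806, plus strand), measured 59.7, 35.7 and 49.1 FPKM against 88.9, 58.2 and 69.7 FPKM, with overlap (-0.59 ± 0.19 SE, limma adjusted p = 0.0475). The call of mt-Nd3 held only without anti-VEGF-B replicate 1 or IgG replicate 2, and elsewhere the adjusted p reached 0.129.

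The other complex I genes of mtDNA had lower means without a call. mt-Nd1 measured 396, 286 and 350 FPKM against 574, 380 and 414 FPKM (-0.40, limma adjusted p = 0.0941), and mt-Nd2 measured 293, 207 and 251 FPKM against 376, 269 and 326 FPKM (-0.37, limma adjusted p = 0.0863). mt-Nd4 had 312, 233 and 295 FPKM against 395, 273 and 315 FPKM, and mt-Nd4l, which shares 7 bases with it, had 167, 123 and 173 FPKM against 210, 151 and 185 FPKM (-0.22 and -0.24). In contrast mt-Nd6, which is transcribed from the other strand and shares 14 bases with mt-Nd5, was nearly level at 24.8, 17.7 and 22.8 FPKM against 22.7, 19.4 and 24.7 FPKM (-0.04, limma adjusted p = 0.851).

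Outside complex I the mtDNA genes overlapped between groups. The catalytic subunit mt-Co1, the most abundant of the 99 genes, measured 1992, 1493 and 1881 FPKM against 1957, 1557 and 1809 FPKM (0.01 ± 0.13 SE). mt-Co2 measured 765, 624 and 729 FPKM against 782, 585 and 704 FPKM, and mt-Co3 measured 365, 280 and 380 FPKM against 422, 292 and 358 FPKM. For the proton channel subunit mt-Atp6 the values were 650, 483 and 616 FPKM against 686, 478 and 589 FPKM. mt-Atp8, which overlaps mt-Atp6 by 43 bases, had 536, 349 and 459 FPKM against 553, 426 and 542 FPKM (-0.19, limma adjusted p = 0.379), and cytochrome b, mt-Cytb, had 739, 573 and 742 FPKM against 863, 642 and 754 FPKM (-0.14, limma adjusted p = 0.456).

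**Figure D3:**
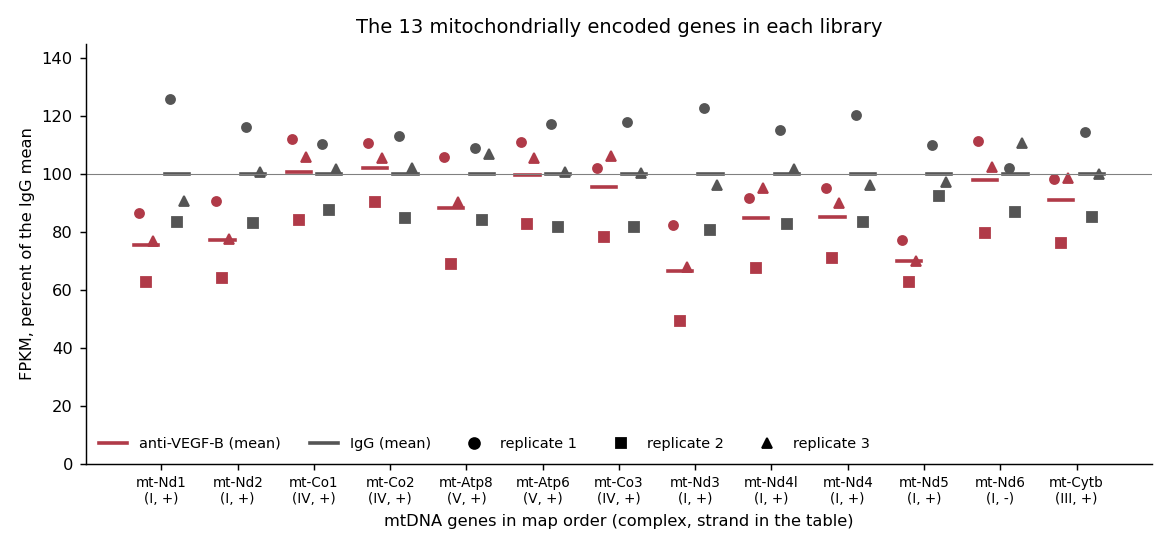
FPKM of the 13 mtDNA genes in each library as a percent of the gene's IgG mean, in map order, with complex and strand under each name; bars are group means. Squares (replicate 2) are lowest in both groups throughout, and the anti-VEGF-B means of mt-Nd3 and mt-Nd5 lie at 66.6% and 70.0% while those of mt-Nd6, mt-Atp6, mt-Co1 and mt-Co2 lie between 97.9% and 102% of the IgG mean.

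A ratio of 2 mtDNA genes within a library does not depend on how that library was scaled, and it also removes the shared low level of replicate 2. The summed FPKM of the 7 mt-Nd genes over that of the 3 mt-Co genes was 0.437, 0.415 and 0.416 with anti-VEGF-B and 0.578, 0.529 and 0.515 with IgG. Every anti-VEGF-B library was lower, and the mean ratio was 0.78 times that of IgG (0.423 ± 0.013 against 0.540 ± 0.033, SD, n = 3 each). Over mt-Co1, mt-Nd5 gave 0.0568, 0.0618 and 0.0547 against 0.0826, 0.0873 and 0.0789, and mt-Nd1 gave 0.199, 0.191 and 0.186 against 0.293, 0.244 and 0.229. Of the 12 other mtDNA genes, 8 were lower relative to mt-Co1 in all 3 anti-VEGF-B libraries (mt-Nd1, mt-Nd2, mt-Nd3, mt-Nd4, mt-Nd4l, mt-Nd5, mt-Cytb and mt-Atp8) and 4 overlapped (mt-Co2, mt-Co3, mt-Atp6 and mt-Nd6). The drop was to 65.9% of the IgG ratio for mt-Nd3, 69.7% for mt-Nd5, 75.2% for mt-Nd1 and 77.0% for mt-Nd2, and to 90.5% for mt-Cytb. All 12 share mt-Co1 as their base and are not separate measurements of it. The share of all genes that were lower relative to mt-Co1 was not computed, so the 8 of 12 has no background beside it. mt-Co1 itself was near level (log2 fold change 0.01), beside a median of -0.15 for all genes. On the deposited scale 38.5% of all genes were lower in all 3 anti-VEGF-B libraries. For the strand pair mt-Nd6 over mt-Nd5 the ratio was higher with anti-VEGF-B (0.219, 0.192 and 0.221 against 0.141, 0.142 and 0.173). The ratios were chosen after the levels had been seen and are given without a test. Whether the quantification used the strand of the library kit is not given in the sources used here, so reads of overlapping mtDNA genes on opposite strands may not be fully separated.

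**Figure D4:**
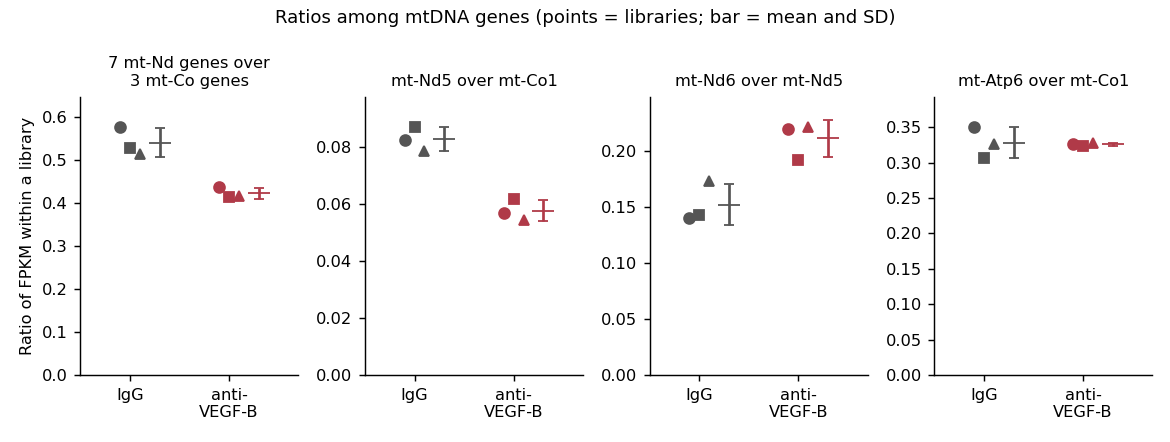
Ratios of FPKM within each library for 4 pairs of mtDNA genes or gene groups, with points for libraries (marker shape gives the replicate number) and bars for mean and SD of 3. The ratios of mt-Nd genes to mt-Co genes and of mt-Nd5 to mt-Co1 are lower in every anti-VEGF-B library, that of mt-Nd6 to mt-Nd5 is higher, and that of mt-Atp6 to mt-Co1 overlaps.

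On the deposited scale the fold changes also went with expression level. Among all tested genes the median log2 fold change was -0.22 for those at 1 to 5 FPKM, -0.14 at 5 to 20 FPKM, -0.03 at 20 to 100 FPKM and 0.10 at 100 FPKM or more. The nuclear respiratory chain genes in the same ranges had medians of -0.24 (14 genes), -0.19 (24 genes), -0.01 (34 genes) and 0.09 (14 genes). With quantile normalization, which gives all libraries the same distribution of values, the trend was gone: the 4 medians were 0.00, 0.01, 0.02 and 0.02 for all genes and 0.00, -0.02, 0.02 and -0.02 for the nuclear ones. The nuclear genes of complexes I and II, with the lowest median fold changes (-0.17 and -0.18), had median levels of 13.5 and 13.4 FPKM, those of complex III (-0.14) had 39.0 FPKM, and those of complexes IV and V (0.06 and 0.09) had 58.1 and 63.8 FPKM. Across the 86 nuclear genes, Spearman's rho between mean FPKM and log2 fold change was 0.50 (0.28 across all 8816 genes), given as a description since all genes share the same 6 libraries. The 11 mtDNA genes at 100 FPKM or more had a median of -0.19, against 0.10 for all 354 genes there, and with quantile normalization these were -0.26 and 0.02. The median of the 13 mtDNA genes depended on single libraries, at -0.02 when anti-VEGF-B replicate 2 was left out, -0.08 when IgG replicate 1 was, -0.30 when anti-VEGF-B replicate 1 was and -0.31 when IgG replicate 2 was.

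**Figure D5:**
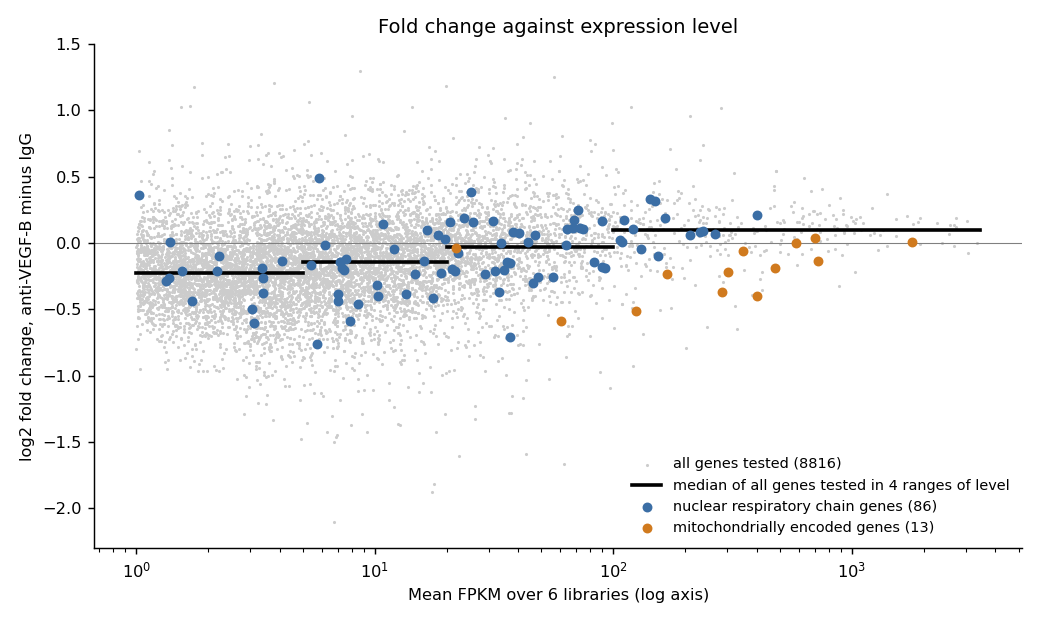
Log2 fold change (anti-VEGF-B minus IgG) against mean FPKM over 6 libraries (log axis) for all 8816 genes (grey), the 86 nuclear respiratory chain genes (blue) and the 13 mtDNA genes (orange). Black lines are the medians of all genes in 4 ranges of level, which go from -0.22 to 0.10. Blue points lie around these lines, and all 13 orange points lie below them, that of mt-Nd6 by little. With quantile normalization the medians in the 4 ranges lie between 0.00 and 0.02.

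Other genes on which the respiratory chain depends were described by function, with the share that fell to be read beside 23.8% of all genes. Of 10 genes for electron carriers and coenzyme Q synthesis, 2 fell (20%) and none rose, with a median log2 fold change of -0.14. With quantile normalization, median centring or scaling to Actb none of these 10 genes was lower, beside 10.4%, 9.15% and 14.8% of all genes. With the first 2 of these scales 1 gene was higher, beside 9.98% and 15.5% of all genes. Cycs, cytochrome c itself, measured 11.4, 8.90 and 10.9 FPKM against 12.9, 14.5 and 13.1 FPKM (-0.35, limma adjusted p = 0.0359), and Coq10b, a coenzyme Q-binding protein, measured 2.60, 2.33 and 2.18 FPKM against 3.45, 3.34 and 3.27 FPKM (-0.37, limma adjusted p = 0.0241). Of 39 assembly factors not named Nduf, 6 fell (15.4%) and 3 rose (7.69%), with a median of -0.14. With quantile normalization 1 of them was lower and 3 higher, and with median centring 1 was lower and 6 higher. The lower gene was Coa3 on both scales. Ecsit, of the complex I assembly machinery, rose (17.03, 18.4 and 18.3 FPKM against 13.7, 12.2 and 12.5 FPKM, limma adjusted p = 0.00797). Its partners in that machinery, Tmem126b (-0.47, adjusted p = 0.0172) and Timmdc1 (-0.48, adjusted p = 0.0278), fell, as did the complex IV assembly factors Coa3 (-0.63, adjusted p = 0.0139) and Pet100 (-0.52, adjusted p = 0.0215; all limma). When 1 library was left out, the call of Ecsit always held, and those of Coa3 and Tmem126b were lost only without anti-VEGF-B replicate 3 (adjusted p = 0.053 and 0.0672). That of Cycs held only without anti-VEGF-B replicate 1, that of Coq10b was lost without anti-VEGF-B replicate 2 or 3 or IgG replicate 3, that of Pet100 without replicates 2 or 3 of either group, and that of Timmdc1 without any anti-VEGF-B replicate or IgG replicate 2 (adjusted p up to 0.103, 0.0956, 0.0661 and 0.081).

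Of 27 genes for mtDNA maintenance and mitochondrial transcription, 6 fell and 1 rose, with a median of -0.19. These shares, 22.2% and 3.70%, are close to the 23.8% and 4.87% of all genes. With quantile normalization 1 of the 27 was lower and 1 higher, beside 10.4% and 9.98% of all genes. With median centring 1 was lower and 3 higher, beside 9.15% and 15.5%. Twnk, the mtDNA helicase, stood at 2.47, 2.39 and 2.49 FPKM against 3.65, 5.13 and 3.97 FPKM (-0.60, limma adjusted p = 0.0110). Tfb2m, which opens the promoters for mitochondrial RNA polymerase, stood at 6.51, 6.51 and 6.13 FPKM against 8.12, 9.75 and 8.60 FPKM (-0.41, limma adjusted p = 0.0160). In both genes the groups were apart. Pnpt1, which degrades mitochondrial RNA (-0.35, adjusted p = 0.0288), and Ssbp1, which coats single-stranded mtDNA (-0.35, adjusted p = 0.0312), also fell, and Hsd17b10, part of the enzyme that cuts the 5' ends of mitochondrial tRNAs, rose (0.26, adjusted p = 0.0239; all limma). When 1 library was left out, the call of Twnk always held, that of Tfb2m was lost only without anti-VEGF-B replicate 3 (adjusted p = 0.0618), those of Pnpt1 and Hsd17b10 held only without IgG replicate 1 (up to 0.0825 and 0.0769 otherwise), and that of Ssbp1 was lost each time (up to 0.0954).

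Of 11 transcription factors and cofactors known for respiratory chain genes, 2 fell (18.2%) and none rose, with a median of -0.11. With quantile normalization 1 of the 11 was lower and 1 higher, and with median centring 1 was lower and 3 higher. Pprc1, a coactivator of the PGC-1 family, was at 1.27, 1.46 and 1.17 FPKM against 2.41, 3.21 and 2.55 FPKM (-0.69, limma adjusted p = 0.00711), and Hcfc1, a cofactor of many growth genes, was at 9.05, 8.24 and 8.10 FPKM against 9.69, 13.03 and 11.5 FPKM (-0.38, limma adjusted p = 0.0335). Gabpa, the DNA-binding subunit of a factor known for nuclear respiratory genes, overlapped at 15.2, 12.3 and 16.5 FPKM against 16.05, 13.6 and 17.2 FPKM (-0.09, limma adjusted p = 0.602). Nrf1 was at 4.79, 5.36 and 5.54 FPKM against 4.15, 4.14 and 4.28 FPKM (0.26, limma adjusted p = 0.0652). The call of Pprc1 held without any 1 library, and that of Hcfc1 held only without IgG replicate 1 (adjusted p up to 0.105 otherwise). In the table Gabpa overlaps Atp5j, a peripheral stalk gene of complex V, over 701 bases on the opposite strand, and Atp5j overlapped between groups as well (15.0, 10.1 and 10.6 FPKM against 12.1, 14.5 and 10.2 FPKM).

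Genes of other mitochondrial compartments gave 2 lower (9.52%) and 1 higher (4.76%) of 21, with a median of -0.03. The matrix chaperonin Hspd1 (36.9, 33.6 and 34.0 FPKM against 48.5, 51.6 and 46.9 FPKM, limma adjusted p = 0.00607) and the matrix protease Lonp1 (59.3, 62.2 and 49.2 FPKM against 76.3, 103 and 76.4 FPKM, limma adjusted p = 0.0156) fell. Vdac1, the outer membrane channel, rose (639, 556 and 639 FPKM against 508, 476 and 528 FPKM, limma adjusted p = 0.0392). Of 7 genes for cardiolipin, the lipid of the inner membrane, 1 fell (14.3%): cardiolipin synthase, Crls1, at 3.93, 3.74 and 3.32 FPKM against 4.92, 5.84 and 5.04 FPKM (-0.43, limma adjusted p = 0.0190). Of 7 genes for the ATP synthase inhibitor and for adenine nucleotide exchange, 3 fell (42.9%). Atpif1, the peptide that holds ATP synthase from running in reverse, was at 10.3, 8.95 and 8.32 FPKM against 15.6, 19.5 and 14.0 FPKM (-0.76, limma adjusted p = 0.00711). The matrix adenylate kinase Ak3 was also lower (5.53, 4.24 and 4.21 FPKM against 6.07, 7.65 and 6.03 FPKM, limma adjusted p = 0.0375). The median of these 7 genes was 0.02, and that of the cardiolipin genes -0.24. When 1 library was left out, calls of Hspd1 and Atpif1 always held. Among these fits, calls of Lonp1 and Crls1 were lost only without anti-VEGF-B replicate 3 (limma adjusted p = 0.057 and 0.0774). That of Vdac1 held only without anti-VEGF-B replicate 2 (up to 0.148 otherwise). That of Ak3 held only without replicate 1 of either group (up to 0.125 otherwise). With quantile normalization or median centring the call of Crls1 was lost, and none of the 7 cardiolipin genes was lower. With median centring 2 of them were higher. The call of Ak3 was also lost with both (limma adjusted p = 0.169 and 0.156), while that of Atpif1 held.

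The nuclear genes of the respiratory chain lie on 18 chromosomes. Of the 86, 19 overlap another listed gene, and 9 have a RefSeq pseudogene named after them (Cox7c, Ndufa12, Atp5c1, Ndufs5, Ndufab1, Atp5l, Atp5k, Cox5b and Uqcrh), so that reads of these genes may be shared and their values are less certain. A divergent gene start within 1000 bases was listed for 18 of the 99 genes. For Ndufa1 it was that of Rnf113a1, a zinc finger gene 82 bases away, which did not pass the test (-0.31, limma adjusted p = 0.0579). For Uqcr10 it was that of Zmat5, a gene for a spliceosomal protein 336 bases away, which fell (-0.47, limma adjusted p = 0.0317).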

How the data were processed

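RNA was extracted by the authors from activated CD4+ T cells, and libraries were made with a stranded kit, sequenced on an Illumina HiSeq and aligned to GRCm38/mm10 with hisat2, with expression levels from StringTie and Ballgown, per the study's methods. The authors deposited 1 table of values per gene and library, with gene coordinates. Its header names no unit and it is titled raw data, but the deposited values are not whole numbers and were taken to be FPKM, as Ballgown gives them. No depth can be recovered from it, and intervals from counting error are therefore not given. Values were transformed to log2(FPKM + 1). Genes whose mean reached 1 FPKM were tested with limma 3.58.1 in R 4.3.3 (lmFit, eBayes with trend, 3 against 3 libraries, no covariate), with Benjamini-Hochberg adjustment over 8816 genes and a threshold of 0.05; a fold change on this scale understates that of low genes. The fit was tested on simulated data with 200 changed genes. Tables and plots were made with pandas 2.3.3 and matplotlib 3.10.9.

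The genes and lists were chosen with earlier results of these data known. Named genes were all mtDNA genes, all of complex II, the 2 most abundant nuclear genes and up to 5 called genes per direction of each complex, paired isoforms, up to 5 called genes per list, and Gabpa, Nrf1, Cycs and Crls1. Genes named outside this rule (Ndufb3, Ndufc1, Ndufs6, Ndufv1, Ndufs7, Ndufaf6, Ndufaf8, Uqcrc2, Atp5e, Atp5j, and neighbouring genes) were chosen after their values were seen. Some genes counted in the lists are not reported here by name. RefSeq (GRCm38.p6) gave names of pseudogenes and matched 85 of the 99 genes by symbol. A planned search of promoters for motifs was not run, because no promoter sequences were used here. Alternatives were quantile normalization, median centring, scaling to Actb or to genes other than mt- genes, other filters, a pseudocount of 0.1, no moderation of variances, the replicate number as a block, and leaving out each library.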

Additional observations from a re-analysis of the deposited data

How the results depend on the processing

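The count of lower respiratory chain genes, 14, became 9 with quantile normalization, 3 with median centring, 6 with scaling to Actb and 6 with an unadjusted p under 0.05 and a log2 fold change beyond 0.5 in place of the adjusted p. The count of higher genes, 4, became 17 with median centring and 0 with the unadjusted p and fold change limits. Without moderation of variances limma's ordinary test called 0 lower and 0 higher of the 99 genes (17 and 9 at an unadjusted p under 0.05), against 14 and 4 with moderation (31 and 9 at an unadjusted p under 0.05). Leaving out each library gave 6 to 12 lower and 2 to 5 higher genes. Over all tested genes, 2099 lower and 429 higher became 913 and 880 with quantile normalization, 807 and 1365 with median centring and 6 and 6 without moderation. The lower count alone became 1309 with scaling to Actb and 989 with a mean of at least 5 FPKM. Leaving out each library gave 695 to 2071 lower and 164 to 396 higher genes, with both lowest counts without anti-VEGF-B replicate 3. The median log2 fold change of the nuclear genes, -0.11, became -0.013 with quantile normalization, 0.090 with median centring (which also moved the median of all genes from -0.15 to 0.05) and -0.033 with a mean of at least 5 FPKM. That of the mtDNA genes, -0.19, was -0.26 with quantile normalization, 0.011 with median centring and from -0.31 (without IgG replicate 2) to -0.021 (without anti-VEGF-B replicate 2) when 1 library was left out. The difference in their share of summed FPKM, -0.188 percentage points, ranged from -0.333 to -0.041 without the same libraries. The spread between libraries (SD) was 0.23 on the log2 scale and 0.27 points. The cause of these changes was not tested.

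Libraries of the 2 groups share replicate numbers, and whether the numbers pair them is not known. Deviations from the group means of same-numbered libraries correlated at -0.030, 0.110 and 0.089. Those of differently numbered libraries correlated at -0.175 to 0.0997. In both groups replicate 2 was the lowest library for all 13 mtDNA genes. Nothing in the sources links the numbers to mice or days. With the replicate number as a block, 19 of the 99 genes were lower (19.2%) and 6 higher (6.06%). The lower ones then took in mt-Nd1, mt-Nd2, mt-Nd4 and mt-Nd4l. Over all genes 2109 were lower (23.9%) and 469 higher (5.32%).

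Depth is unknown, so genes of a few FPKM, such as Cox7a1, Ndufc1 and Ndufab1, are the least certain. Sequences of the genes were not used here.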
